A study of Mus musculus with 11 samples.

Results

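The proteasome subunit genes of cultured mouse microglia were taken as the 37 genes, of 16934 in the count table, whose symbol begins with Psma, Psmb, Psmc or Psmd followed by a digit, with at least 1 count in all and without Psmb8, Psmb9 and Psmb10. The 11 libraries, made with a kit that reads the 3′ ends of mRNA, came from passage 0 microglia of C57BL/6 pups of postnatal day 0 to 3 after 7 to 10 days of culture. Of these, 4 were of microglia alone, with neither neurons nor fibrils. Another 3 were of microglia that had spent 6 h beside untreated cortical neurons, which had been 14 days in vitro. The last 4 were of microglia that had spent 6 h beside such neurons once these had taken up α-synuclein fibrils (Atto488-labelled, 0.1 µM, 16 h) and been washed. Aggregates of α-synuclein are a hallmark of Parkinson's disease, and by its title the series concerns tunneling nanotubes, thin bridges through which cells exchange material. The labels name no genetic change in any group and do not say how microglia were parted from neurons, whether animals were pooled, or whether libraries within 1 group are separate cultures. A p-value therefore reflects the spread among these samples alone, and that spread may be technical.

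The proteasome is the barrel-shaped protease that degrades proteins tagged with ubiquitin. Its 20S core has outer rings of alpha subunits, which gate the entry, and inner rings of beta subunits, of which Psmb5, Psmb6 and Psmb7 carry the active sites. The 19S cap has a ring of Psmc ATPases that unfold the substrate and a set of Psmd subunits that bind ubiquitin and remove it. In cells of the immune system interferon can replace the active subunits with Psmb8, Psmb9 and Psmb10, the immunoproteasome subunits. When proteasome activity is short, the transcription factor Nfe2l1 is known to raise the genes of the core and the cap together, through antioxidant response elements in their promoters.

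By role, the members comprised 8 alpha, 8 beta, 6 ATPase and 11 other 19S subunit genes, and 3 genes for chaperones that assemble the ATPase ring (Psmd5, Psmd9 and Psmd10). Psmc3ip, which also met the symbol rule, encodes a protein of meiotic recombination and no proteasome subunit, and it was kept out of all sums. Psma8 of testis and Psmb11 of thymus are subunits restricted to those tissues. All 37 genes had a position in the RefSeq annotation of GRCm38.p6 (mm10), on 16 chromosomes.

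Since Nfe2l1 is known to act through this element, the 250 bases before the RefSeq start site were searched on both strands for the core of the antioxidant response element, TGACNNNGC. Of the 30 members with a promoter entry in the RefSeq set of GRCm38.p6, 5 held it (16.7%), against 11.5% of 27025 genes with an entry. Each is shown 5′ to 3′ on the gene's strand, with up to 10 bases on each side and the match in capitals, which for Psmc6 and Psmd12 reads on the opposite strand.
Psmb5 (chr14:54618024-54618052, minus strand): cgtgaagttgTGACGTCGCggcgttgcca
Psmb6 (chr11:70525338-70525356, plus strand): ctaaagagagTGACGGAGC
Psmd9 (chr5:123228149-123228177, plus strand): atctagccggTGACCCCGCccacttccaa
Psmc6 (chr14:45329587-45329615, plus strand): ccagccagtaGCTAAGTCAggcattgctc
Psmd12 (chr11:107479278-107479299, plus strand): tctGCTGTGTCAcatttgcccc
Start sites of the promoter set can lie inside the annotated gene, as for Psmb6, whose match falls within the gene's first bases. In Psmb5, Psmb6 and Psmd9 the match lay 38, 0 and 22 bases before the start site, and in Psmc6 and Psmd12 it lay 218 and 238 bases before it. In all, 8 motifs were searched in the same way. The ETS family motif CCGGAAG was in 10 of the 30 member promoters (33.3%) against 7.83% of all genes, and the palindromic motif of the factor NRF-1 in 6 (20%) against 4.23%. The GC box GGGCGG was in 17 (56.7%) against 35.4%, CCAAT in 13 (43.3%) against 37.5% and TATAAA in 3 (10%) against 14.3%. The heat shock element (0.514% of all genes) and the motif of the factor YY1 (0.359%) were in 0 of the 30. A match is a description of the letters and not of a bound site.

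Total counts ran from 8253070 to 16802451 per library, and 9157 to 11739 genes had a count. The 12 microglia markers, among them Csf1r and C1qa, all had counts in every group. Their sum ran from 12531 to 13913 CPM (counts scaled to library size after TMM, the trimmed mean of M values) in microglia alone, below every co-culture library, from 16429 to 19645 CPM with untreated and from 14064 to 20143 CPM with fibril-loaded neurons. The 10 neuron markers summed to between 61.4 and 180 CPM in the 4 libraries of microglia alone, to between 0 and 30.1 CPM with untreated and to between 8.43 and 37.6 CPM with fibril-loaded neurons. Most of these neuron markers were detected: 8 of the 10 had a count in microglia alone, 6 beside untreated neurons and 9 beside fibril-loaded ones. Snap25, a defining gene of synapses, was the only neuron marker with no count in any group. Astrocyte markers summed to at most 96.1 CPM, oligodendrocyte markers to at most 264 CPM and fibroblast markers to at most 14.5 CPM. The ribosomal RNA precursor Rn45s took 14.0 to 24.8% of counts in microglia alone and 10.7 to 17.0% in the co-cultures. The part of these differences in the values below was not tested, except that all tests were repeated with Rn45s left out. In bulk RNA, fewer cells of a type and less RNA per cell cannot be told apart.

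The summed RNA of the proteasome genes under the symbol rule had overlapping ranges in the 3 conditions. Sem1, a 19S subunit gene outside the rule, is not in this sum, and a sum with it was not computed. Its level was 280 ± 231 CPM in microglia alone, 572 ± 189 CPM with untreated and 483 ± 139 CPM with fibril-loaded neurons. The 36 subunit and chaperone genes together made 3963 ± 259.7 CPM (SD, n = 4) in microglia alone. Beside untreated neurons they made 3844 ± 448 CPM (n = 3), and beside fibril-loaded ones 4175 ± 357 CPM (n = 4). The lowest library of the 11 held 3480 CPM, with untreated neurons, and the highest 4565 CPM, with fibril-loaded neurons, and the ranges of the 3 groups overlapped. This came to between 0.328 and 0.481% of all counts. The log2 ratio of the group means was -0.04 for untreated neurons against microglia alone, 0.07 for fibril-loaded neurons against microglia alone and 0.12 for fibril-loaded against untreated neurons. Each was smaller than the spread between libraries of the groups compared (0.19, 0.16 and 0.21 on the log2 scale, the root of the summed variances of both groups). For the comparisons with untreated neurons this rested on library 2 of that group. Without it the ratio was -0.14 against a spread of 0.12 relative to microglia alone, and 0.22 against 0.14 for fibril-loaded against untreated neurons. Sums over genes chosen with earlier results in view were given no test.

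**Figure D1:**
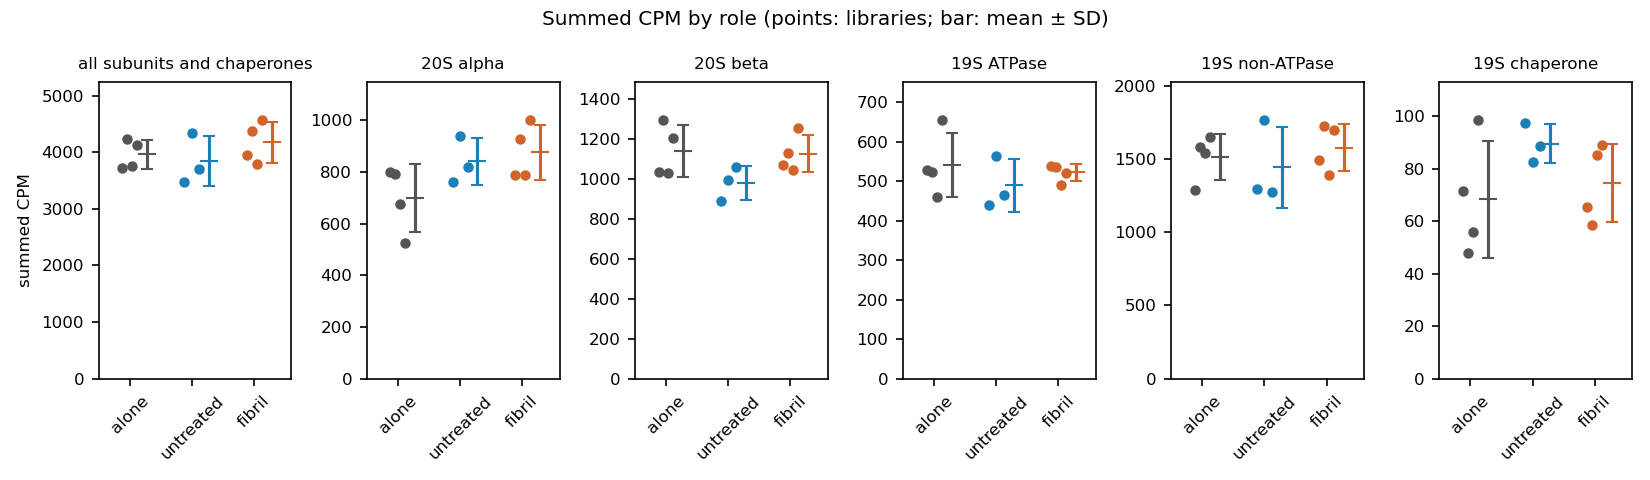
Summed CPM (linear axis from 0) of all 36 subunit and chaperone genes and of each role group, with 1 point per library and the mean ± SD beside it, for microglia alone (n = 4), with untreated neurons (n = 3) and with fibril-loaded neurons (n = 4). In all 6 panels the ranges of the 3 groups overlap in every pair.

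Beside untreated neurons the mean of the alpha sum was above that of microglia alone and the mean of the beta sum below it, within overlapping ranges. Single genes did not follow their sums. In that comparison 4 of the 8 alpha genes and 5 of the 7 beta genes tested were above 0 on the log2 scale (47.7% of all genes). The 2 beta genes below 0 were Psmb6 (mean 380 CPM in microglia alone, 234 CPM beside untreated neurons) and Psmb4 (234 and 173 CPM). The 8 alpha genes summed to 699 ± 129.9 CPM in microglia alone, 840.3 ± 90.9 CPM beside untreated and 875 ± 107 CPM beside fibril-loaded neurons. The 8 beta genes summed to 1140.1 ± 130.4, 979 ± 85.5 and 1125 ± 93.0 CPM in the same order. Against the spread of the 2 groups compared, the log2 ratio of the alpha sums was 0.27 against 0.33 with untreated and 0.33 against 0.34 with fibril-loaded neurons, both relative to microglia alone. For the beta sums it was -0.22 against 0.21 for untreated neurons against microglia alone, and 0.20 against 0.17 for fibril-loaded against untreated neurons, so that both ratios slightly exceeded the spread although the ranges overlapped. The 6 ATPase genes summed to 541 ± 81.7, 489.6 ± 66.6 and 522 ± 22.0 CPM, and the 11 other 19S subunits to 1516 ± 157, 1445 ± 277 and 1578 ± 162 CPM. The 3 assembly chaperones summed to 68.3 ± 22.3, 89.5 ± 7.44 and 74.4 ± 14.8 CPM.

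No single proteasome gene passed the test in any comparison. In edgeR's quasi-likelihood test on all 11276 genes with enough counts, 35 members were tested, and Psmb11 and Psmc3ip were not, for low counts. With untreated neurons against microglia alone, 0 of the 35 were called higher and 0 lower at an adjusted p (Benjamini-Hochberg, BH) below 0.05, where 0.461% of all genes tested were called higher and 0.177% lower. With fibril-loaded neurons against microglia alone the count was again 0 and 0, where 0.266% and 0.0532% of all genes were called. Between the co-cultures 0 members were called, as were 0% of all genes in either direction. DESeq2 also called 0 members in each comparison, although it called more of all 11016 genes to which it gave an adjusted p. With untreated neurons against microglia alone it called 1.55% higher and 2.56% lower, in the fibril-loaded group against microglia alone 1.2% and 0.835%, and between the co-cultures 1.19% and 0.245%. At an unadjusted p below 0.05 there was 1 member of 35 with untreated neurons (10.3% of all genes), Psmb6, which was lower (5.67% of all genes, and 0 members beside 4.66% higher). With fibril-loaded neurons against microglia alone there was also 1 (8.14%), Psma6, which was higher (4.25%, and 0 members beside 3.89% lower). Between the co-cultures there were 0 (3.95%), where 2.64% of all genes were higher and 1.3% lower. Tests against microglia alone share those 4 libraries.

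The fold changes were small and went both ways. With untreated neurons against microglia alone, 17 of the 35 members were above 0 on the log2 scale (47.7% of all genes tested), with a median log2 fold change of -0.03 beside -0.05 over all genes. With fibril-loaded neurons against microglia alone 20 were above 0 (47.9%), with a median of 0.05 beside -0.04. For fibril-loaded against untreated neurons 19 were above 0 (49.8%), with a median of 0.03 beside 0. A fold over 2 in either direction was fitted for 3, 1 and 1 of the 35 in these comparisons, where 34.3%, 27.9% and 27% of all genes had one. These were Psma5, Psma8 and Psmd5, then Psma8, then Psmd5. Among genes with a mean of 50 CPM or more the median absolute log2 fold change of the 28 members was 0.19, 0.18 and 0.18, beside 0.39, 0.33 and 0.23 for 3111 genes.

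The precision of single genes was limited. The unadjusted 95% interval reached to each side by a median of 0.80, 0.74 and 0.80 log2 units over the members in the 3 comparisons. Among genes with a mean of 50 CPM or more this median was 0.74, 0.69 and 0.74 for the 28 members, beside 0.81, 0.75 and 0.81 for all 3111 such genes. The shares of all genes that follow are over genes of every level, and were not matched to the level of the members. The interval lay wholly within a 2-fold change in either direction for 12 of the 35 members with untreated neurons against microglia alone (8.11% of all genes). It did so for 16 when fibril-loaded neurons were set against microglia alone (10.7%), and for 16 between the co-cultures (11.7%). It did so in all 3 comparisons for Psma2, Psmb1, Psmb3, Psmc2, Psmc3, Psmd4, Psmd7, Psmd8 and Psmd11. For the other members the interval reached a 2-fold change in at least 1 comparison. Intervals come from edgeR and cover the spread between libraries.

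**Figure D2:**
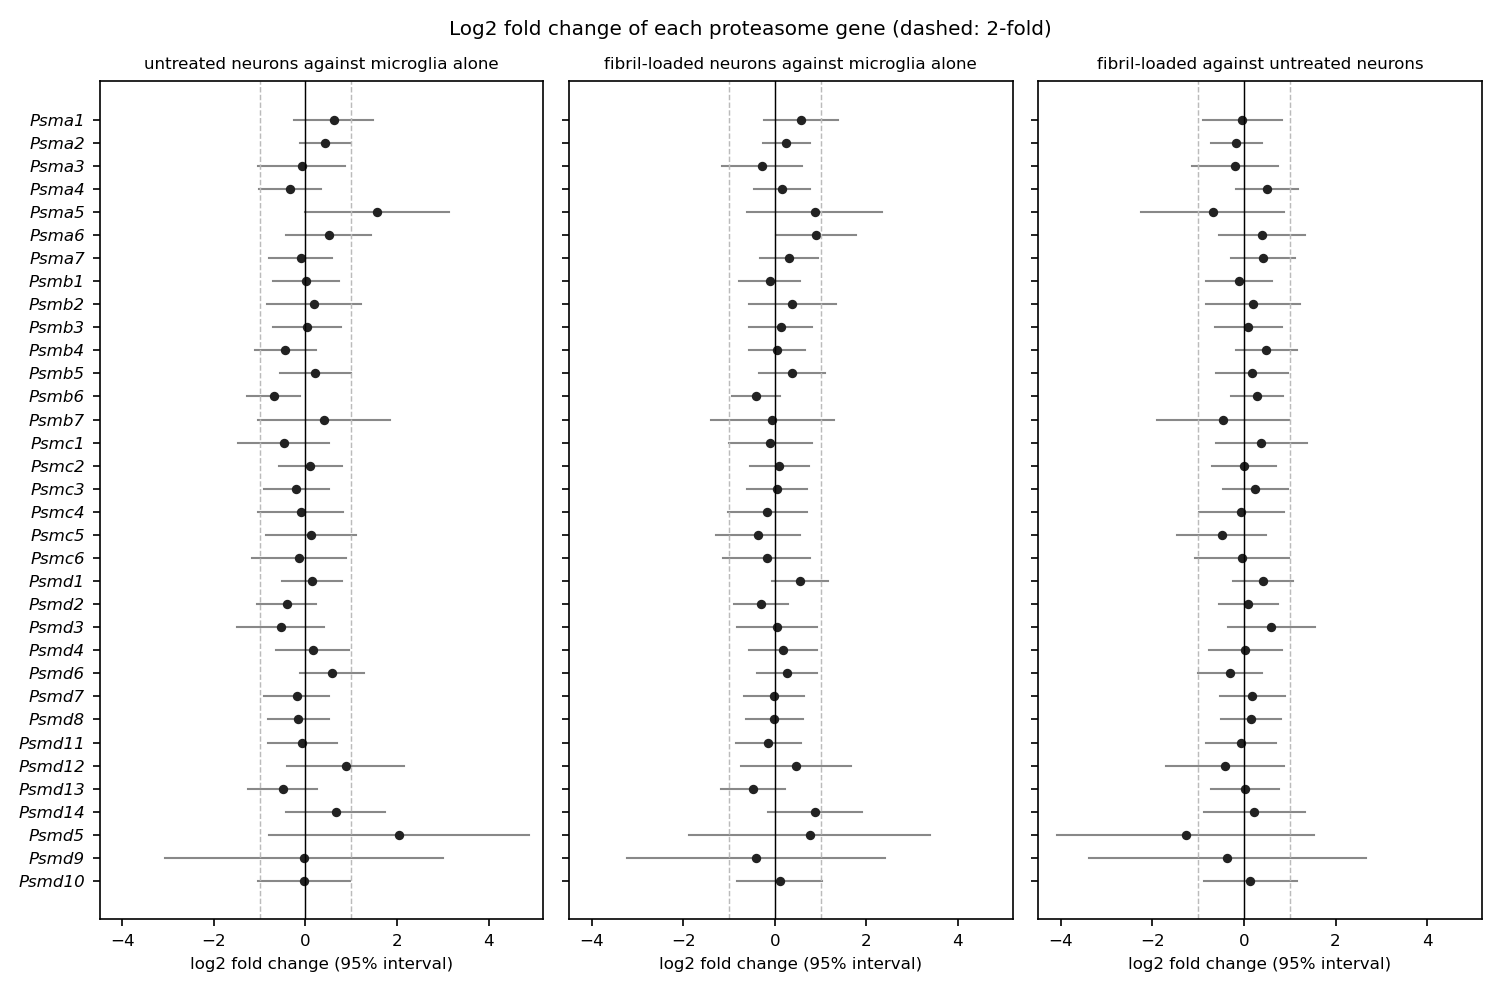
Log2 fold change (points) with the unadjusted 95% interval (lines) from edgeR for the 34 subunit and chaperone genes other than the tissue-restricted Psma8 and Psmb11, by comparison; dashed lines mark a 2-fold change. Of the intervals drawn, only those of Psmb6 with untreated and Psma6 with fibril-loaded neurons, both against microglia alone, leave out 0, and neither gene passed after adjustment.

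Subunits differed widely in level. A 3′ kit reads each transcript near its end, so CPM was compared between genes without dividing by length. Levels of Psmb5, Psmb6, Psmb7, Psmc3 and Psmc3ip are uncertain, for reasons of annotation given further on. Among the members, Psmb6 had the highest mean level over the 11 libraries, at 306 CPM. It was followed by Psmd1 at 261 CPM, Psma2 at 257 CPM, Psmd8 at 229 CPM and Psmb4 at 220.2 CPM. At the other end of the core and cap subunits stood Psmd12 at 49.1 CPM, Psma5 at 33.6 CPM and Psmb7 at 28.9 CPM. The chaperone genes Psmd5 and Psmd9 had means of 15.2 and 10.4 CPM, and each had no count in library 1 with fibril-loaded neurons. Psma8 (1.40 CPM), Psmb11 (0.158 CPM) and Psmc3ip (2.53 CPM) had no count in 7, 8 and 8 of the 11 libraries.

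**Figure D3:**
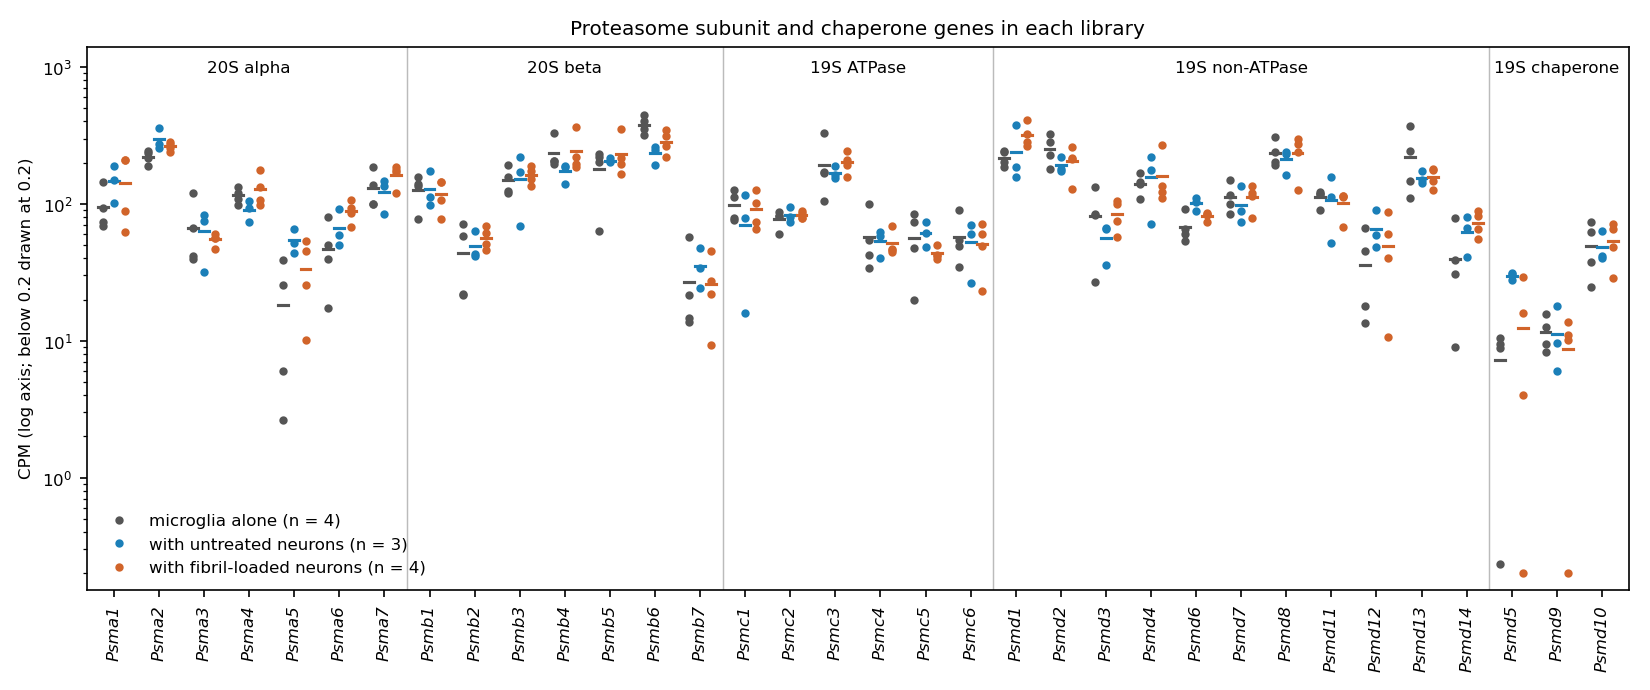
CPM (log axis, values below 0.2 drawn at 0.2) of 34 subunit and chaperone genes in each library, grouped by role, with 1 point per library and a bar at the group mean; Psma8 and Psmb11 are left out for low counts. Psmb6 is the highest gene in microglia alone, and Psma5, Psmd5 and Psmd9 hold the lowest points.

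Among the alpha subunits, Psma2 was at 245, 216, 234 and 189.6 CPM in microglia alone, 273, 358 and 257 CPM with untreated and 257, 285, 274 and 239 CPM with fibril-loaded neurons. All 3 libraries with untreated neurons lay above all 4 of microglia alone, while the fibril-loaded group overlapped both. Its log2 fold change with untreated neurons against microglia alone was 0.42 (SE 0.26, edgeR BH-adjusted p = 0.655). Psma5 was at 2.66, 25.4, 39.1 and 6.01 CPM in microglia alone, 52.0, 66.0 and 44.1 CPM with untreated and 25.4, 53.4, 10.1 and 45.6 CPM with fibril-loaded neurons. It too was higher in every library with untreated neurons than in any of microglia alone, by a log2 fold change of 1.56 (SE 0.76, adjusted p = 0.484). Both genes lie in the outer ring, Psma2 on chromosome 13 from 14613242 to 14625673 and Psma5 on chromosome 3 from 108256926 to 108279952.

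Psma6, another outer-ring gene, was at 80.7, 39.9, 50.1 and 17.4 CPM in microglia alone, 59.5, 49.9 and 91.1 CPM with untreated and 93.0, 67.6, 85.8 and 106 CPM with fibril-loaded neurons. Of the fibril-loaded libraries 3 lay above all of microglia alone, and the ranges overlapped through library 1 of microglia alone. Its log2 fold change with fibril-loaded neurons against microglia alone was 0.91 (SE 0.42, unadjusted p = 0.0419, adjusted p = 0.595). Psma4 was at 134, 109, 119.8 and 98.6 CPM in microglia alone, 73.6, 94.0 and 105 CPM with untreated and 108, 133, 97.6 and 176 CPM with fibril-loaded neurons, and all groups overlapped. For fibril-loaded against untreated neurons it had a log2 fold change of 0.50 (SE 0.33, adjusted p = 1). Psma1, Psma3 and Psma7 overlapped between all groups, with group means from 95.5 to 146 CPM, from 55.1 to 67.1 CPM and from 122 to 163 CPM.

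Psmb6, which provides the caspase-like active site, had the smallest p of all members in any comparison. It was at 446, 352, 318 and 405 CPM in microglia alone, 262, 194 and 246 CPM with untreated and 267, 312, 219 and 345 CPM with fibril-loaded neurons. Every library with untreated neurons lay below every one of microglia alone, and the fibril-loaded libraries overlapped both groups. The log2 fold change was -0.70 with untreated neurons (SE 0.28, unadjusted p = 0.0197, edgeR BH-adjusted p = 0.389) and -0.41 with fibril-loaded neurons (SE 0.25, adjusted p = 0.846), both against microglia alone. The gene lies on chromosome 11 from 70525324 to 70527858. Its promoter entry holds the antioxidant response core printed above, as do 11.5% of all genes with an entry. Whether that match bears on these levels was not tested.

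The other active-site genes overlapped between all groups. Psmb5, of the chymotrypsin-like site, was at 63.4, 232, 219 and 201 CPM in microglia alone, 204, 215 and 202 CPM with untreated and 167, 196, 218 and 352 CPM with fibril-loaded neurons. Library 1 of microglia alone was the low one and library 4 with fibril-loaded neurons the high one. Psmb7, of the trypsin-like site, was at 14.8, 57.6, 13.8 and 21.5 CPM, then 24.4, 47.7 and 34.3 CPM, then 9.29, 44.999, 27.4 and 21.8 CPM in the same order of groups. Its level was the lowest of the beta subunits other than Psmb11.

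Among beta subunits without an active site, Psmb4 was at 196, 328, 206 and 205 CPM in microglia alone, 187, 190.03 and 140.5 CPM with untreated and 367, 221, 195 and 186 CPM with fibril-loaded neurons. The libraries with untreated neurons lay below all of microglia alone. Its log2 fold change for fibril-loaded against untreated neurons was 0.49 (SE 0.32, adjusted p = 1), with overlapping ranges. Psmb1, Psmb2 and Psmb3 had group means from 118 to 128 CPM, from 43.4 to 56.7 CPM and from 149 to 163 CPM. In all, ranges lay apart upward with untreated neurons against microglia alone for 3 members (Psma2, Psma5 and Psmd5, 8.57% beside 4.9% of all genes) and downward for 2 (Psmb4 and Psmb6, 5.71% beside 5.45%).

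The genes for the beta subunits that interferon induces were set beside their constitutive partners. Psmb8 was at 73.5 ± 37.7 CPM in microglia alone, 106 ± 41.9 CPM with untreated and 68.6 ± 21.5 CPM with fibril-loaded neurons, and Psmb10 at 75.9 ± 32.0, 73.0 ± 16.0 and 73.5 ± 26.9 CPM. Psmb9 was at 0.156, 11.1, 7.96 and 8.60 CPM, then 38.5, 7.25 and 37.3 CPM, then 12.5, 4.08, 42.4 and 19.3 CPM. Its log2 fold change with untreated neurons against microglia alone was 1.99 (SE 1.12, adjusted p = 0.568), and 2 of the 3 libraries with untreated neurons lay above all of microglia alone. Psmb8 had a log2 fold change of -0.63 for fibril-loaded against untreated neurons (SE 0.44, adjusted p = 1), and none of these genes passed.

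The balance within each pair differed from pair to pair in the same way in all groups. Of the counts of Psmb7 and Psmb10 together, Psmb10 made up 73.5 ± 14.0% in microglia alone, 67.1 ± 10.7% beside untreated and 72.6 ± 16.2% beside fibril-loaded neurons. For Psmb5 and Psmb8 the share of Psmb8 was 30.6 ± 13.1, 33.0 ± 9.33 and 23.5 ± 8.05%. For Psmb6 and Psmb9 the share of Psmb9 was 1.90 ± 1.31, 9.85 ± 5.42 and 6.84 ± 6.51%. By these counts the immunoproteasome partner was the more abundant RNA for Psmb7 in all 11 libraries, and the less abundant one for Psmb5 and Psmb6. These shares were not tested between groups. They also rest on uncertain levels of the constitutive partners. The end of Psmb7 overlaps exons of Nek6 on the opposite strand, and processed pseudogenes are named after Psmb5, Psmb6 and Psmb7. The ends of Psmb8, Psmb9 and Psmb10 were not examined for such overlaps.

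**Figure D4:**
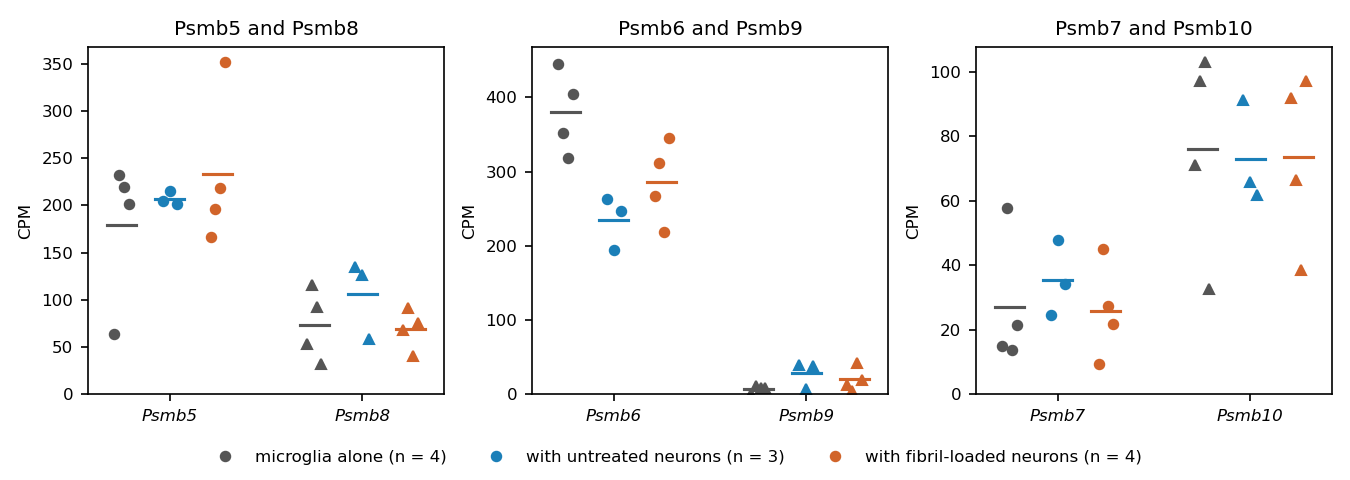
CPM (linear axis from 0, scaled per panel) of the 3 active-site beta subunit genes (circles) and their immunoproteasome counterparts (triangles) in each library, with bars at the group means. Psmb6 sits at 318 to 446 CPM in microglia alone and 194 to 262 CPM with untreated neurons, and Psmb10 lies above Psmb7 in each group mean.

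The ATPase genes of the 19S cap, Psmc1 to Psmc6, had overlapping ranges in every comparison. Against microglia alone their log2 fold changes lay between -0.48 and 0.12 beside untreated neurons, and between -0.37 and 0.10 beside fibril-loaded ones. Between the co-cultures they ran from -0.49 to 0.38. Psmc2 was at 77.9 ± 11.96 CPM in microglia alone, 83.4 ± 10.9 CPM beside untreated and 83.4 ± 4.93 CPM beside fibril-loaded neurons. It had the smallest coefficient of variation of all members over the 11 libraries, at 11.1%. Psmc3 was the most abundant of the ring at 194 ± 95.3, 169 ± 19.6 and 201 ± 37.1 CPM. Psmc1 was at 16.1 CPM in library 1 with untreated neurons, against 66.0 to 126 CPM in the other 10 libraries. Psmc4, Psmc5 and Psmc6 had group means between 43.5 and 61.0 CPM.

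Among the subunits that receive ubiquitin, Psmd4, the receptor Rpn10, was at 109, 145, 139.5 and 167 CPM in microglia alone, 219, 177 and 71.9 CPM with untreated and 269.9, 122, 134 and 109.8 CPM with fibril-loaded neurons. Library 1 was the highest in both co-cultures, and the groups overlapped. Psmd2, the large scaffold subunit that docks ubiquitin shuttles, was at 227, 179.99, 283 and 324 CPM, then 174, 221 and 179 CPM, then 129, 214, 215 and 261 CPM in the same order, again overlapping. Psmd1, the other large scaffold, was at 244, 185, 240.1 and 202 CPM in microglia alone, 186, 379 and 157 CPM with untreated and 263, 408, 285 and 324 CPM with fibril-loaded neurons. All 4 fibril-loaded libraries lay above all 4 of microglia alone, while 1 library with untreated neurons was as high. The log2 fold change of Psmd1 was 0.56 against microglia alone (SE 0.29, edgeR BH-adjusted p = 0.698) and 0.41 against untreated neurons (SE 0.32, adjusted p = 1). Psmd1 was the 1 member whose ranges lay apart upward with fibril-loaded neurons against microglia alone (2.86% of members beside 2.7% of all genes), and 0 lay apart downward (2.92% of all genes).

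Psmd14 encodes the deubiquitinase that cuts ubiquitin chains off the substrate. It was at 8.99, 39.1, 79.1 and 31.0 CPM in microglia alone, 40.6, 79.6 and 67.1 CPM with untreated and 65.2, 89.3, 55.5 and 81.9 CPM with fibril-loaded neurons. Its ranges overlapped through library 3 of microglia alone, and its log2 fold change with fibril-loaded neurons was 0.88 (SE 0.49, adjusted p = 0.748). Psmd6, a subunit of the lid, was at 60.7, 54.0, 65.3 and 91.1 CPM in microglia alone, 109.7, 88.8 and 104 CPM with untreated and 84.9, 82.9, 86.4 and 73.3 CPM with fibril-loaded neurons. It had a log2 fold change of 0.57 with untreated neurons against microglia alone (SE 0.34, adjusted p = 0.605). It was also the 1 member whose ranges lay apart between the co-cultures, downward with fibrils (2.86% beside 2.3% of all genes; 0 lay apart upward, beside 2.39%), with a log2 fold change of -0.30.

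Psmd3, also of the lid, was at 83.5, 133, 84.0 and 26.7 CPM in microglia alone, 36.0, 67.0 and 65.0 CPM with untreated and 100.4, 75.0, 57.2 and 105 CPM with fibril-loaded neurons. Its log2 fold change between the co-cultures was 0.59 (SE 0.46, adjusted p = 1). The other lid genes overlapped between all groups. Group means ran from 98.9 to 113 CPM for Psmd7, from 211 to 236 CPM for Psmd8, from 102 to 112 CPM for Psmd11, from 35.9 to 66.0 CPM for Psmd12 and from 155 to 219 CPM for Psmd13.

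Of the assembly chaperones, Psmd5 was at 0.235, 10.4, 8.93 and 9.43 CPM in microglia alone, 27.6, 31.3 and 30.5 CPM with untreated and 0, 16.1, 4.03 and 29.1 CPM with fibril-loaded neurons. The libraries with untreated neurons were the most alike and lay above all of microglia alone, and the fibril-loaded ones spread over both levels (edgeR BH-adjusted p = 0.701 with untreated neurons against microglia alone). Psmd9 was at 8.29, 12.7, 9.46 and 15.6 CPM, then 5.98, 9.57 and 18.0 CPM, then 0, 13.6, 10.1 and 11.1 CPM. Psmd10, or gankyrin, had group means from 48.5 to 53.4 CPM. Psma8 had counts in 2 libraries of microglia alone (6.33 and 4.85 CPM), 1 with untreated neurons (2.19 CPM) and 1 with fibril-loaded neurons (1.98 CPM). Psmc3ip was at 21.0 CPM in library 1 with untreated neurons and 6.73 CPM in library 2 of microglia alone, and at or near 0 in the others. Its last 500 bases overlap exons of Mlx on the opposite strand, as those of Psmb7 overlap Nek6 and those of Psmc3 overlap Slc39a13. Whether counting used strand is not given in the sources used here, so these levels are uncertain, as are those of Psmb5, Psmb6 and Psmb7, after which 4 processed pseudogenes are named in GENCODE M21. Only pseudogenes named after a member were sought, so those with other names were not examined for any member.

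Genes that work with the proteasome but fall outside the symbol rule were examined as a list of 36, of which 35 were tested, and 0 passed in any comparison by edgeR or by DESeq2, beside the shares of all genes given above for each tool. At an unadjusted p below 0.05 there was 1 with untreated neurons (10.3% of all genes) and 1 with fibril-loaded neurons (8.14%), both against microglia alone. There were 0 between the co-cultures (3.95%). Psme3, which encodes the nuclear proteasome activator PA28 gamma, was at 37.9, 42.5, 41.0 and 70.3 CPM in microglia alone, 60.8, 50.2 and 67.5 CPM with untreated and 104, 85.9, 105 and 100.03 CPM with fibril-loaded neurons. Ranges lay apart upward with fibril-loaded neurons for 1 of the 35 genes against microglia alone, beside 2.7% of all genes. Against untreated neurons they did so for 2, Psme3 and Psmg3, beside 2.39% of all genes. For Psme3 all 4 fibril-loaded libraries lay above all 7 others. The log2 fold change was 1.05 against microglia alone (SE 0.35, unadjusted p = 0.00629, adjusted p = 0.315) and 0.73 against untreated neurons (SE 0.37, unadjusted p = 0.0636, adjusted p = 1). Sem1, the small 19S subunit Rpn15, was at 89.4, 517, 439 and 74.1 CPM in microglia alone, 475, 451 and 790.4 CPM with untreated and 345, 673, 434 and 482 CPM with fibril-loaded neurons. Libraries 1 and 4 of microglia alone were low and all others high (log2 fold change with untreated neurons against microglia alone 1.03, SE 0.49, adjusted p = 0.482). Usp14, a deubiquitinase that docks on the cap, was at 72.2 ± 25.2, 51.1 ± 14.1 and 42.4 ± 12.1 CPM, with a log2 fold change of -0.77 for fibril-loaded neurons against microglia alone (SE 0.40, adjusted p = 0.698).

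None of the regulators of proteasome gene expression or the ubiquitin genes passed the test. Nfe2l1 was at 82.0 ± 39.95 CPM in microglia alone, 69.4 ± 18.0 CPM with untreated and 97.5 ± 41.8 CPM with fibril-loaded neurons. Its relative Nfe2l2, or NRF2, was at 557 ± 129.8, 591 ± 159 and 545 ± 136 CPM. Of the 11 ubiquitin and shuttle genes, 2 were above 0 on the log2 scale with untreated neurons against microglia alone (47.7% of all genes, list median -0.36). With fibril-loaded neurons 3 were above 0 (47.9%, median -0.20), and between the co-cultures 6 were (49.8%, median 0.19). None passed in any comparison. The polyubiquitin gene Ubb was at 1075 ± 163, 785 ± 153 and 937 ± 128 CPM in microglia alone, beside untreated and beside fibril-loaded neurons. Pomp, the chaperone that matures the core, was at 332 ± 51.0, 318 ± 79.4 and 363 ± 52.9 CPM, and the 5 Psmg and Pomp assembly genes had medians of -0.07, 0.13 and 0.19 on the log2 scale in the 3 comparisons.

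The spread of members between libraries was close to that of other genes of like level. The coefficient of variation over all 11 libraries had a median of 31.0% for the 28 members with a mean of 50 CPM or more, beside 35.6% for all 3111 such genes. Over the 35 members tested it was 34.2%, and over all 11276 genes tested it was 65.0%. For the sum of the 36 subunit and chaperone genes it was 8.60%. A sum averages over its genes, so this value cannot be compared with those of single genes. No sum over other genes was computed, so it does not show that these genes are steadier than others. Psma5 had a highest value 24.8 times its lowest, Psmd14 9.93 times, Psmd12 8.47 times and Psmc2 1.58 times. No library was extreme for most members. Among the 32 subunit and chaperone genes with a mean of 20 CPM or more, library 1 with untreated neurons was the lowest of the 11 for 7, library 1 of microglia alone for 6, and libraries 1 and 2 of microglia alone were the highest for 5 each.

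**Figure D5:**
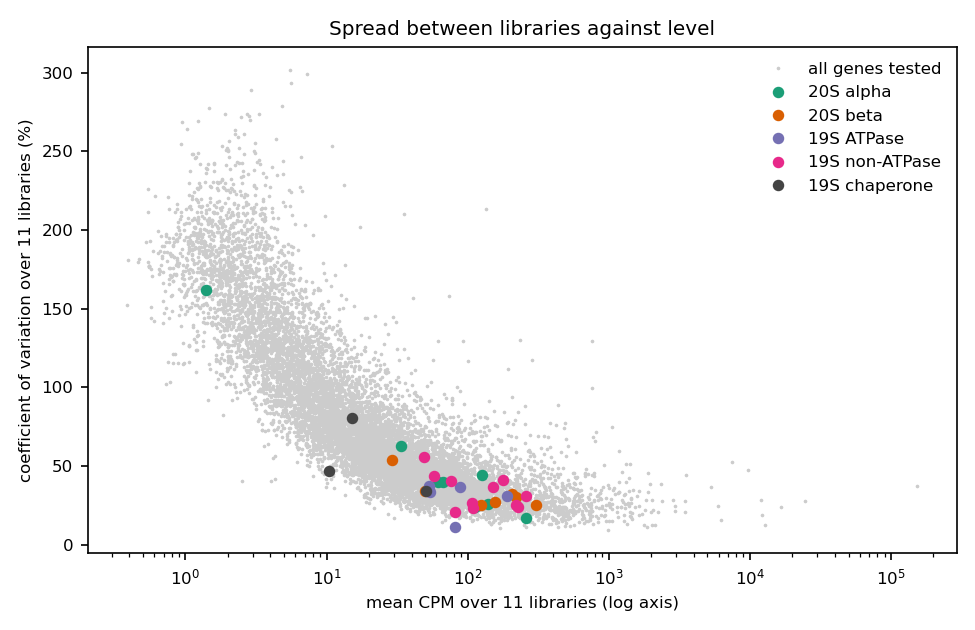
Coefficient of variation over the 11 libraries (percent) against mean CPM (log axis) for all 11276 genes tested (grey) and the 35 members tested, coloured by role. Members lie within the cloud of other genes, with Psmc2 lowest at 11.1% and Psma8, at 1.40 CPM, highest at 162%.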

How the data were processed

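Libraries were made with the QuantSeq 3′ FWD kit from column-purified RNA, per the labels' protocols. The values used are the raw counts for each gene symbol that the authors deposited. STAR, Partek, DESeq2 and mm10 appear in the submitters' processing notes, and versions, strand use and duplicate handling are not given in the sources used here. A normalized table of the same counts was not used. Groups are the treatment groups of the labels; libraries are numbered in order of deposition. Of 16934 genes, 2828 had no count and 11276 passed filterByExpr. Counts were fitted in R 4.3.3 with edgeR 4.0.16 (TMM, quasi-likelihood test, all 11 libraries, group as the only term, two-sided, BH over all genes tested, threshold 0.05). Log2 correlations between libraries were at most 0.851, so no pair was near identical. The code was tested on simulated data. Members and lists were chosen with earlier results of these data known. The genes given in every library are the active-site subunits, the 4 members of smallest p per comparison (mean of at least 10 CPM), Psmd2, Psmd4, Psmd14, and the 2 tested members of highest and the 2 of lowest level. Psmd5, Psmc3ip and the motifs were added after values were seen. From the list of related genes the 2 of smallest p per comparison and Psmb8, Psmb9 and Psmb10 are named. Nfe2l1, Nfe2l2, Ubb and Pomp were added by function. Alternatives were RLE scaling, other low-count filters, DESeq2 1.42.0, the 2 groups only, Rn45s left out, each library left out and, added after seeing the data, a replicate block by title serials.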

Additional observations from a re-analysis of the deposited data

Results flagged for a closer look

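In 7 of 72 groups of 4 libraries examined (35 members and the summed level, in microglia alone and with fibril-loaded neurons), 1 library stood apart from the other 3 by more than the 95% limit of Dixon's test; chance flags about 1 group in 20. In microglia alone these were Psmb4 in library 2 at 328 CPM (next 206 CPM), Psmd11 in library 1 at 90.2 CPM (next 118 CPM) and Psmd5 in library 1 at 0.235 CPM (next 8.93 CPM). With fibril-loaded neurons they were Psmd4 in library 1 at 269.9 CPM (next 134 CPM), Psmc4 in library 2 at 68.9 CPM (next 46.9 CPM), Psmd11 in library 3 at 67.6 CPM (next 112 CPM) and Psma8 in library 2 at 1.98 CPM, with no count in the others.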

How the results depend on the processing

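The count of proteasome genes called was 0 in each of the 3 comparisons with RLE scaling, with all genes kept or only those of mean CPM 5 or more, in DESeq2, in fits of the 2 groups alone, without Rn45s and in each of 11 fits that left out 1 library. The fold changes of the 4 members of smallest p in each comparison kept their sign and stayed short of the threshold in all of these in which the gene was tested, with the smallest adjusted p at 0.111, for Psmb6 with untreated neurons against microglia alone in DESeq2. Their size moved by over 1.5 times on leaving out 1 library for 6 of them. The log2 fold change of Psmd1 between the co-cultures was 0.90 without library 2 and 0.18 without library 3 of the untreated group, and 0.27 without fibril-loaded library 2. Those of Psmb4 and Psma4 were 0.22 without fibril-loaded library 1 and 0.31 without library 4, and that of Psmd3 was 0.37 without untreated library 1. Against microglia alone, Psma2 was at 0.26 without untreated library 2, and Psmd14 with fibril-loaded neurons at 0.57 and 1.48 without libraries 1 and 3 of microglia alone. The log2 ratio of summed CPM ran, on leaving out 1 library, from -0.14 to 0.02 for untreated neurons against microglia alone, from 0.03 to 0.13 for fibril-loaded neurons against microglia alone and from 0.07 to 0.22 for fibril-loaded against untreated neurons. The first of these changed sign without library 1 with untreated neurons. Without library 2 of that group, -0.14 and 0.22 exceeded the spread of the remaining libraries (0.12 and 0.14). As the median over members the ratios were -0.03, 0.05 and 0.03. The labels give no replicate numbers that groups share, but serial numbers in the sample titles rise in steps of 7 within each group. An analysis with sets of 7 serials as a replicate block was added after seeing the data. Deviations from the group means correlated by -0.03 to 0.06 (median 0.03) in the 10 same-set pairs of libraries. In the 30 other pairs they correlated by -0.05 to 0.04 (median -0.01), and 6 of 11 libraries correlated best with one of their own set. Whether the serials pair the samples cannot be told from these values, and the main fit was kept without a block. With the block 0 members were called in each comparison (all genes 95, 66 and 0, against 72, 36 and 0), and the log2 ratio of sums, averaged within sets, was -0.08 ± 0.26 (SD, 3 sets), 0.07 ± 0.21 (4 sets) and 0.08 ± 0.09 (3 sets, 3 of them above 0). Depth limits Psma8, Psmb11, Psmc3ip, Psmd5 and Psmd9, whose fold changes are wide or not tested; for most members the 95% interval of a fold change reached 2-fold in each comparison.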

Other observations

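Libraries 1 and 4 of microglia alone held the lowest values of all 11 libraries for 5 of the 70 tested members and proteasome-related genes, a pattern seen after the values were examined. The share over all genes tested and other pairs of libraries were not counted, so the pattern cannot be called particular to these genes. The 5 genes are listed here. They were Psma5 (2.66 and 6.01 CPM, next 10.1 CPM), Psmb2 (21.5 and 21.9 CPM, next 41.3 CPM), Psmd14 (8.99 and 31.0 CPM, next 39.1 CPM), the activator subunit gene Psme2 (2.09 and 8.68 CPM, next 19.5 CPM) and Sem1 (74.1 and 89.4 CPM, next 345 CPM). Uchl5, a deubiquitinase of the cap, was at 37.8 ± 16.0 CPM in microglia alone, 25.0 ± 20.9 CPM with untreated and 17.6 ± 5.15 CPM with fibril-loaded neurons, with the fibril-loaded libraries below all of microglia alone (edgeR BH-adjusted p = 0.811). It was the 1 gene of the 35 related ones tested whose ranges lay apart downward in that comparison, beside 2.92% of all genes. Psmg3, an assembly chaperone gene, was at 34.6, 36.7, 36.4 and 35.6 CPM in the 4 fibril-loaded libraries, against 5.08 to 64.4 CPM in microglia alone and 13.5 to 30.1 CPM with untreated neurons. Ranges lay apart upward between the co-cultures for 2.39% of all genes.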
